A study of Homo sapiens with 4 samples.

Results

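The genes described here were 345 named antisense RNAs of the glioblastoma line U87MG, among the 60617 genes of the deposited count files. A gene counted as a member if its name was that of another gene in the files followed by -AS and a number, and if its expected counts, summed over the 4 libraries, came to 50 or more. The files list 1371 names of this form, and 1348 of them have their sense gene in the files. Of these 1348, 1003 stayed below 50 counts, 557 of them with no count in any library. The 345 members are named after 340 sense genes, 338 of which are protein coding, and 5 sense genes have 2 members each. Membership rests on the summed count, which favours RNAs that are high in at least 1 group but sets no direction.

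U87MG is an established human glioblastoma line, grown here as spheres in a stem-cell medium (DMEM/F12 with N2, 2% B27, and EGF and bFGF at 20 ng/ml each). Poly-A RNA was sequenced from 2 libraries of spheres treated with abemaciclib, an inhibitor of the cyclin-dependent kinases CDK4 and CDK6, and from 2 libraries of untreated spheres, all with a labelled time of 14, which the series' design text gives in days. The dose of the drug and whether the untreated spheres received its solvent are not given in the sources used here. Nothing in the labels says that replicates came from separate cultures, so p-values reflect only how far these libraries differ, and that spread may be technical.

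An antisense RNA is transcribed from the DNA strand opposite to a gene, and it may overlap that gene's exons, lie within its introns or start from a shared promoter and run the other way. Some are known to act on the gene they overlap, by changing chromatin at its promoter, pairing with its mRNA or being transcribed against it, and others act elsewhere in the cell, for example by binding microRNAs. Most have no known function, and many are low, nuclear and specific to a cell type.

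For 33 pairs the RefSeq start of the antisense RNA lay within the 250 bases before the RefSeq start of the sense gene, so that a single short stretch of DNA holds both starts. Below are 5 of these stretches, chosen after their values were seen to show each way a pair behaved, on the strand of the sense gene (RefSeq sequence, GRCh38.p14). Each runs from 250 bases before to 50 bases after the sense gene's start, and capitals mark the bases between the starts of the antisense RNA and of the sense gene. ID2, where both RNAs fell, is at chr2:8681806-8682105 on the + strand. ZBED5, where both rose, is at chr11:10858004-10858303 on the - strand. PRKAR2A, where the antisense RNA fell and the mRNA rose, is at chr3:48847825-48848124 on the - strand. DICER1, where the antisense RNA fell and the mRNA did not pass the test, is at chr14:95157480-95157779 on the - strand. RBM15, where the antisense RNA rose and the mRNA did not pass the test, is at chr1:110339127-110339426 on the + strand.
ID2 and ID2-AS1: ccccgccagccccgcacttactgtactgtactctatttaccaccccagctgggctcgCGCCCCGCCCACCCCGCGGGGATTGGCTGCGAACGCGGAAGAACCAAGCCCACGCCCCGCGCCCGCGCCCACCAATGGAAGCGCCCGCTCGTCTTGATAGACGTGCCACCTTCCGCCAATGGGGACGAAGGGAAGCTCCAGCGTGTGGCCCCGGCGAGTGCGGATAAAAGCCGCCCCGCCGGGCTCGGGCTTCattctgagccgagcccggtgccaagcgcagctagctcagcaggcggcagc
ZBED5 and ZBED5-AS1: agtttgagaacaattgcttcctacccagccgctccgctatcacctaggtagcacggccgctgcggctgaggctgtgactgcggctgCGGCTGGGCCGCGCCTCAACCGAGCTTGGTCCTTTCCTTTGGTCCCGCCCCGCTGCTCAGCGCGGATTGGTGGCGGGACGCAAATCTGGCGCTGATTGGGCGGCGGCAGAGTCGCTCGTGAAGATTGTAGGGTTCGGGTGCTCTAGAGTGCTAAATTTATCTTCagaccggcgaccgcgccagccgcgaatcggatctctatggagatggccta
PRKAR2A and PRKAR2A-AS1: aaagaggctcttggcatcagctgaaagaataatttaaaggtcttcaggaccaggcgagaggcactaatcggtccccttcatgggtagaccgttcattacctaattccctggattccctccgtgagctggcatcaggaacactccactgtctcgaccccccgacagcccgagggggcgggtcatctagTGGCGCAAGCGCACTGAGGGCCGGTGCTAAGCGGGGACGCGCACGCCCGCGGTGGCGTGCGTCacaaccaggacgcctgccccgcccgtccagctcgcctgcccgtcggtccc
DICER1 and DICER1-AS1: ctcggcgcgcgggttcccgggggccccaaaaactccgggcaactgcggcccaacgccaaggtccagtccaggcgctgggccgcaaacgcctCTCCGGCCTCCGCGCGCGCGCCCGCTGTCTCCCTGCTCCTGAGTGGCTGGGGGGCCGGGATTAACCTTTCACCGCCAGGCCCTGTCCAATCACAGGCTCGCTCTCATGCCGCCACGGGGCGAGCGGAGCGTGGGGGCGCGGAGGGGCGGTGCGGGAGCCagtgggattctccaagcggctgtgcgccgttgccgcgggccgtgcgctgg
RBM15 and RBM15-AS1: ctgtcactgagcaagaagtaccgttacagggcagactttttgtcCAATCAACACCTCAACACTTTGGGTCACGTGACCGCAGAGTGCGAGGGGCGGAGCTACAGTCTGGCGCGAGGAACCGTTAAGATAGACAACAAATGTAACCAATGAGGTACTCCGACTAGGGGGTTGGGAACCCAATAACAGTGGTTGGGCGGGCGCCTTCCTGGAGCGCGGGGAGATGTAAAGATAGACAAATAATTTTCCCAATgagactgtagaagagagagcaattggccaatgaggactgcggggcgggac

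In the whole set of 33 shared stretches the median number of CG dinucleotides was 32, against 14 over all 35116 promoter windows of the same length. The letters GGGCGG, read on both strands, were in 24 of the 33 (72.7%), against 45.0% of all windows. The letters CCAAT, on both strands, were in 10 of the 33 (30.3%), against 34.6% of all windows. The letters TTTCCCGC, on both strands, were in 0 of the 33, against 1.63% of all windows. These are matches of letters only.

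Libraries held 23684260 and 33226884 expected counts with abemaciclib and 27485206 and 33418075 untreated. A count of 3 corresponded to between 0.0898 and 0.127 CPM, the unit of counts scaled to a common library total. Levels of antisense RNAs and sense genes are given below as CPM scaled by TMM, a method that corrects for unequal library composition. The marker levels in this paragraph are CPM of the library total, without TMM. Of 12 markers of the line and of glia, 9 averaged 1 CPM or more, with VIM at 5149 CPM, while GFAP, S100B and SOX2, which mark astrocytes and neural stem cells, averaged 0.241, 0.0632 and 0.23 CPM. Summed, these markers came to 8206 and 8205 CPM with abemaciclib and to 19166 and 19506 CPM untreated. The largest part of the untreated sum was CHI3L1, at 10920 and 11870 CPM, against 2932 and 2872 CPM with abemaciclib. The markers did not all fall alike. EGFR had 79.2 and 78.4 CPM with abemaciclib, against 84.8 and 80.7 CPM untreated. SOX2, at a low level, had 0.464 and 0.361 CPM with abemaciclib, against 0.0364 and 0.0599 CPM untreated. Of 16 markers of other cell types, 7 averaged 1 CPM or more, and the microglial gene AIF1 and the oligodendrocyte gene MOG were at 0 in all libraries. Their sum, mostly CD68, was 1148 and 1122 CPM with abemaciclib and 552 and 539 CPM untreated. Without CD68 the sum went the other way, with 29.7 and 27.9 CPM with abemaciclib and 48.3 and 46.9 CPM untreated. Their part in the results was not tested. Mitochondrially encoded genes took 11.8% and 11.7% of counts with abemaciclib and 4.27% and 4.66% untreated, and leaving them out kept the counts of members called at 111 higher and 129 lower.

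Antisense RNAs are easily confused with the genes they overlap, so their strand and sharing were examined first. The libraries were made with a stranded kit, and the strand setting of the counting is not given in the sources used here. In GENCODE release 29 (GRCh38), 269 members had an exon that overlaps an exon of a gene on the other strand, and 38 overlapped an exon of another gene on their own strand. An expected count that is not whole shows reads divided among genes. Of the 38 with a same-strand overlap, 20 had such a value, against 10 of the 236 with an opposite-strand overlap alone and 2 of the 71 with neither. All 1348 antisense genes with their sense gene in the files were screened for overlap with exons of an abundant sense gene. In 5 of them at least 80% of the exonic bases lay on exons of a sense gene of at least 100 CPM. Of these 5, 0 were members and 2 had no count. DDIT4-AS1, all of whose exonic bases lie on exons of DDIT4, had 6 counts in all, against 129120 of DDIT4. PAPPA-AS1, likewise covered, had 4 counts, against 16370 of PAPPA.

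Antisense RNAs moved in both directions after abemaciclib. All 345 passed the filter on low counts, and edgeR's quasi-likelihood test called 111 higher (32.2%) and 129 lower (37.4%), while 105 did not pass. Over all 17207 genes tested, 77.3% were called, 38.0% higher and 39.3% lower, so the members were called no more often than genes in general. In bulk libraries, fewer cells of a type and less RNA per cell cannot be told apart. The median log2 fold change of members was -0.16, against -0.01 over all genes tested, with quartiles of -0.96 and 0.80. In 294 members (85.2%) the treated libraries lay on one side of both untreated ones, against 87.9% of all genes. DESeq2 called fewer, 72 higher and 94 lower, against 51.9% of all genes called by it in either direction. Calls with a change of at least 2-fold were made for 70 members higher (20.3%) and 81 lower (23.5%), against 13.8% and 17.4% of all genes. Members were lower in level than most genes, with a median of 1.94 CPM against 13.5 CPM, and their median standard error was 0.27 on the log2 scale, against 0.096 over all genes. Among the 3574 genes tested between 0.957 and 6.19 CPM, the members' middle range, 69.2% were called, against 70.5% of the 173 members there. By direction, 29.1% of these genes were higher and 40.1% lower, against 34.7% and 35.8% of these members. Other long noncoding RNAs (1979 tested) had a median of -0.30, with 24.7% called higher and 41.2% lower.

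**Figure D1:**
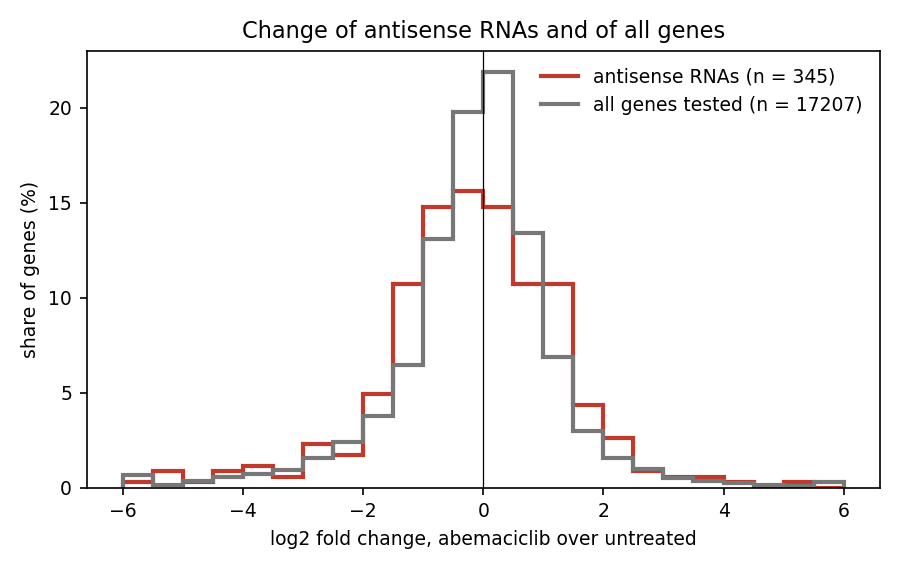
Share of genes (y axis, %) by log2 fold change of abemaciclib over untreated libraries (x axis, bins of 0.5, values beyond 6 placed in the end bins), for 345 antisense RNAs (red) and all 17207 genes tested (grey). The outline of the antisense RNAs is lower and wider than that of all genes, with a median of -0.16 against -0.01.

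Members with more counts were called more often. Of the 156 members with 50 to 199 counts in all, 59.6% were called, with a median standard error of 0.38, and of the 189 with 200 or more, 77.8% were called, with a median standard error of 0.15. Summed, the members came to 1799 and 1779 CPM with abemaciclib and to 2001 and 1997 CPM untreated. Without PAX8-AS1, the sums were 1646 and 1630 CPM with abemaciclib and 1989 and 1986 CPM untreated.

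Among the members that rose, PAX8-AS1 stood apart in level. PAX8 encodes a paired-box transcription factor of thyroid and kidney, and PAX8-AS1 (ENSG00000189223, chromosome 2, 113211522 to 113276581, + strand, 13 exons) overlaps PAX8 exons. It had 152 and 148 CPM with abemaciclib, against 11.3 and 11.3 CPM untreated. Each treated library was more than 10 times either untreated one, and the log2 fold change was 3.73 ± 0.05 (SE, n = 2 libraries each, edgeR's quasi-likelihood test with Benjamini-Hochberg adjusted p = 1.09e-32). PAX8 itself had 8.22 and 8.50 CPM with abemaciclib, against 7.48 and 6.88 CPM untreated, a log2 fold change of 0.23 ± 0.12 that did not pass (edgeR, adjusted p = 0.081; with scaling by total library size it passed, 0.28, adjusted p = 0.032). With abemaciclib PAX8-AS1 was therefore the most abundant member, and per exonic length it stood at 793% and 748% of PAX8, against 64.7% and 70.4% untreated.

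Some of the other large rises were of RNAs near the detection limit in untreated spheres, with 3 counts or fewer in both untreated libraries together. FLG-AS1, opposite the skin barrier gene FLG (filaggrin), had 51 and 63 counts with abemaciclib, against 1 and 2 counts untreated. The ratio of scaled counts was 39.2 (exact 95% interval 13.1 to 193, which covers counting error only), and FLG had no count in any library. USP46-AS1, which starts next to the deubiquitinase gene USP46, had 25 and 37 counts with abemaciclib, against 3 and 0 counts untreated. Its ratio of scaled counts was 21.3 (exact 95% interval 6.96 to 106), and the fitted log2 fold change of 4.29 moved to 8.02 without untreated replicate 1 and to 3.21 without untreated replicate 2. DYRK3-AS1, named for its low untreated count after its values were seen, had 49 counts in the treated libraries together, against 3 in the untreated ones (ratio 16.8, interval 5.43 to 84.5).

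The remaining 9 of the 12 largest rises had log2 fold changes between 2.28 and 3.32. The 12 were taken among called members of at least 1 CPM in the higher group with treated libraries above both untreated ones. BAALC-AS2, named after a gene associated with acute leukaemia, had 2.49 and 1.98 CPM with abemaciclib, against 0.296 and 0.153 CPM untreated (log2 fold change 3.32 ± 0.39). ZBED3-AS1 had 3.20 and 3.28 CPM with abemaciclib, against 0.481 and 0.214 CPM untreated (3.25 ± 0.33, and 3.90 without untreated replicate 1). It shares exonic bases with a same-strand gene and its expected counts were not whole. RBM15-AS1, at the promoter of an RNA-binding factor of the mRNA methylation machinery, had 1.16 and 1.27 CPM with abemaciclib, against 0.185 and 0.183 CPM untreated (2.701 ± 0.44). SNRK-AS1, opposite a gene for a kinase related to AMPK, had 4.32 and 3.96 CPM with abemaciclib, against 0.518 and 0.978 CPM untreated (2.42 ± 0.26). B4GALT1-AS1 (Golgi galactosyltransferase), USP3-AS1 (histone deubiquitinase), NDUFB2-AS1 (a subunit of respiratory complex I), RBPMS-AS1 (an RNA-binding protein) and ATP6V1B1-AS1 (a subunit of a proton pump), each given here with what its sense gene encodes, had log2 fold changes of 2.68, 2.60, 2.35, 2.35 and 2.28.

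**Figure D2:**
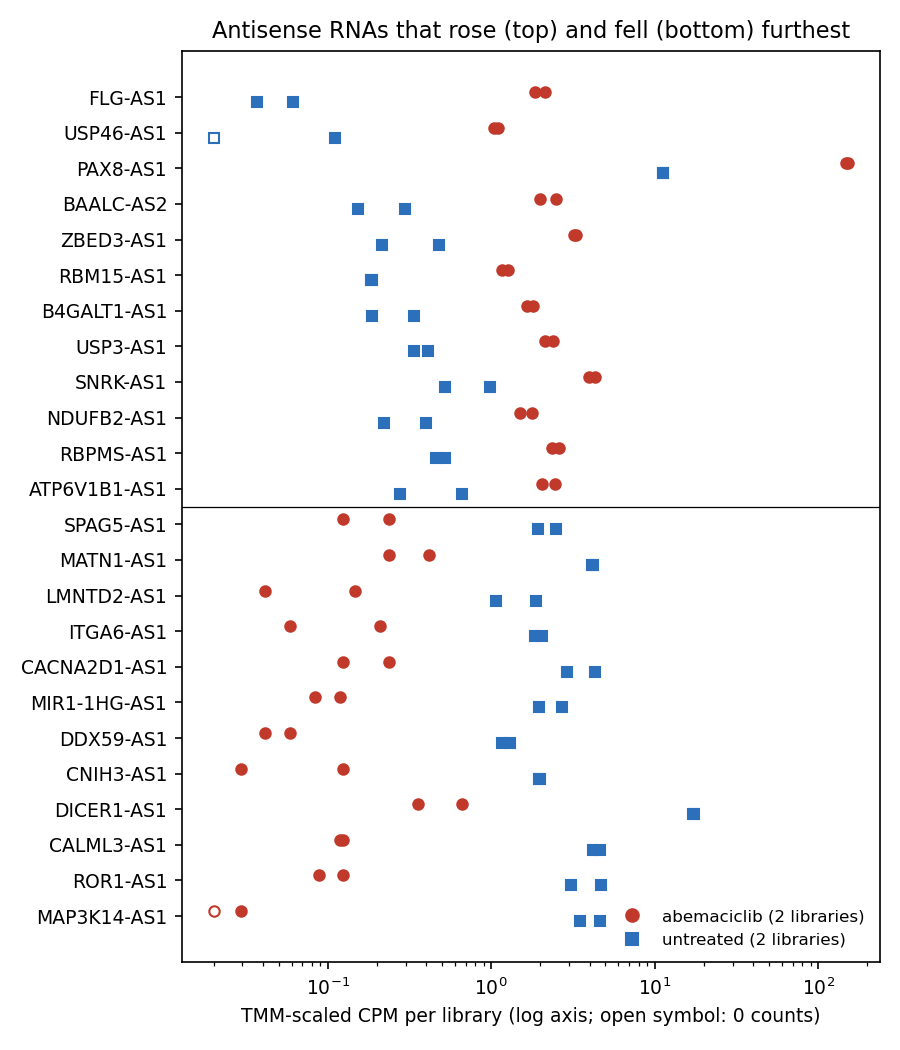
Level of the 12 antisense RNAs with the largest rise (top) and the 12 with the largest fall (bottom) in each library, as TMM-scaled CPM on a log axis; red circles are the 2 abemaciclib libraries, blue squares the 2 untreated ones, and an open symbol marks 0 counts. The groups are apart for each gene shown, since this was a condition of the choice. Examples are PAX8-AS1, at 152 and 148 CPM against 11.3 CPM, and DICER1-AS1, at 0.665 and 0.354 CPM against 17.3 and 17.1 CPM.

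Among the 12 largest falls, DICER1-AS1 was the most abundant in untreated spheres. DICER1 encodes the nuclease that cuts microRNA precursors, and DICER1-AS1 (ENSG00000235706, chromosome 14, 95157645 to 95179933, + strand, 3 exons) starts beside it, in the stretch printed above. It had 0.665 and 0.354 CPM with abemaciclib, against 17.3 and 17.1 CPM untreated. The log2 fold change was -5.14 ± 0.18 (n = 2 libraries each, edgeR's quasi-likelihood test, Benjamini-Hochberg adjusted p = 6.81e-22). DICER1 had 14.4 and 12.3 CPM with abemaciclib, against 14.6 and 15.3 CPM untreated, and did not pass (log2 fold change -0.18 ± 0.09, edgeR, adjusted p = 0.085). Without abemaciclib replicate 1 it passed, at -0.27 (edgeR, adjusted p = 0.025). MAP3K14-AS1, opposite the gene for the NF-kB-inducing kinase, had 0 and 1 counts with abemaciclib, against 94 and 151 counts untreated. The untreated level was 238 times the treated one (exact 95% interval 42.3 to 9424).

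CALML3-AS1, named after a calmodulin-like gene that had no count here, had 0.125 and 0.118 CPM with abemaciclib, against 4.18 and 4.61 CPM untreated (log2 fold change -5.14 ± 0.35). ROR1-AS1, within the gene of a WNT receptor kinase, had 0.125 and 0.0886 CPM with abemaciclib, against 4.70 and 3.09 CPM untreated (-5.16 ± 0.40). DDX59-AS1, opposite a helicase gene, had 3 counts in the treated libraries together, against 73 in the untreated ones, which were 23.6 times higher (exact 95% interval 7.76 to 117). In each of these the libraries of the groups were apart, which was a condition of the choice. The other 7 of the 12 largest falls were CNIH3-AS1, MIR1-1HG-AS1, CACNA2D1-AS1, ITGA6-AS1, LMNTD2-AS1, MATN1-AS1 and SPAG5-AS1, with log2 fold changes of -4.75, -4.46, -4.24, -3.95, -3.77, -3.72 and -3.51. Their untreated levels lay between 1.07 and 4.34 CPM. At these counts 1 library moved the fitted value: without abemaciclib replicate 1 CNIH3-AS1 was at -5.87, ITGA6-AS1 at -4.94 and MAP3K14-AS1 at -6.91, and without abemaciclib replicate 2 they were at -3.93, -3.19 and -9.83 and LMNTD2-AS1 at -4.98.

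Of the 10 members highest in level, 8 fell and 2 rose, where 38.0% of all genes tested were higher and 39.3% lower. Besides PAX8-AS1, ZMIZ1-AS1, which starts beside the gene for a coactivator of nuclear receptors and does not overlap it, rose, with 54.3 and 54.0 CPM with abemaciclib, against 41.3 and 45.9 CPM untreated (log2 fold change 0.31 ± 0.05). OIP5-AS1, a long noncoding RNA also called cyrano, had 34.0 and 34.2 CPM with abemaciclib, against 68.6 and 67.1 CPM untreated (-0.99 ± 0.05). ADIRF-AS1 had 12.2 and 10.95 CPM with abemaciclib, against 63.1 and 67.1 CPM untreated (-2.50 ± 0.07). In all 3 the libraries of the groups were apart. SLC9A3-AS1, TPT1-AS1, RASSF8-AS1, GABPB1-AS1, CD27-AS1 and FGD5-AS1 fell as well, with log2 fold changes of -1.90, -1.97, -0.86, -0.72, -0.49 and -0.16. The fall of FGD5-AS1, at 77.0 and 74.2 CPM with abemaciclib and 85.8 and 82.7 CPM untreated, did not pass in DESeq2 (adjusted p = 0.079). OIP5-AS1, ADIRF-AS1 and TPT1-AS1 had expected counts that were not whole.

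A list of 72 antisense RNAs known from the literature had 64 names in the files and 40 members. Of these 40, 8 rose, 22 fell and 10 did not pass, where 38.0% of all genes tested were higher and 39.3% lower. Their median log2 fold change was -0.37, against -0.16 for all members and -0.01 for all genes tested. Several in the list have been described as promoting tumour growth, but its members were not sorted by that role. The falls given here therefore do not describe such RNAs as a kind, and the rises follow in the next paragraph. FOXD2-AS1 had 3.03 and 2.57 CPM with abemaciclib, against 11.4 and 10.7 CPM untreated (-1.99 ± 0.14). FEZF1-AS1 had 3.74 and 3.16 CPM with abemaciclib, against 11.1 and 11.9 CPM untreated (-1.75 ± 0.13). DLGAP1-AS2 had 9.10 and 9.51 CPM with abemaciclib, against 40.1 and 40.3 CPM untreated (-2.11 ± 0.07). All treated libraries of these 3 lay below the untreated ones. ZEB1-AS1, beside the gene for a transcription factor of the epithelial to mesenchymal transition, fell by 1.00 ± 0.18 on the log2 scale, with 2.58 and 2.98 CPM with abemaciclib and 4.59 and 6.51 CPM untreated. Falls were also called for PCBP1-AS1 (-1.20), LBX2-AS1 (-1.04), MAPKAPK5-AS1 (-0.95) and ST7-AS1 (-1.40).

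Rises in this list, besides PAX8-AS1, were those of PTPRG-AS1 (1.38 ± 0.30, and 1.99 without untreated replicate 2), SPRY4-AS1 (1.31 ± 0.33), MCM3AP-AS1 (1.06 ± 0.24), ITGB2-AS1 (0.97 ± 0.29), BHLHE40-AS1 (0.92 ± 0.40), GNAS-AS1 (0.71 ± 0.27) and ARHGAP5-AS1 (0.64 ± 0.14). Some calls rested on 1 library. Without untreated replicate 2 the rises of BHLHE40-AS1 and GNAS-AS1 did not pass (0.59 and 0.46), nor did the fall of NR2F2-AS1, which was -0.91 ± 0.33 with all libraries and -0.71 without that one. Without abemaciclib replicate 2 the values of BHLHE40-AS1 and GNAS-AS1 were 0.95 and 0.65, and without abemaciclib replicate 1 that of BHLHE40-AS1 was 0.92, none of which passed. TP73-AS1, which fell by 0.19 ± 0.08, did not pass whichever of the 4 libraries was left out (between -0.22 and -0.15). BHLHE40-AS1 also missed the threshold with a replicate block (edgeR, adjusted p = 0.052) and without the low-count filter (0.056), and TP73-AS1 without that filter (0.083) and with scaling by total library size (0.13). In DESeq2 these 4, ITGB2-AS1 and PXN-AS1 did not pass. PSMA3-AS1, KTN1-AS1, NNT-AS1, LOXL1-AS1, SNAI3-AS1, DDX11-AS1 and SBF2-AS1 did not pass, with log2 fold changes between -0.20 and 0.26. Of the names in the list that were no members, CDKN2B-AS1 (ANRIL), EGFR-AS1 and CD44-AS1 had no count in any library, which allows up to 3 counts each. HIF1A-AS1, below the limit for members, had 19 and 21 counts with abemaciclib, against 1 and 0 counts untreated.

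Members were next grouped by what their sense genes encode, with lists matched partly by gene name stems, which leave out many members and take in some genes of other roles. Of 12 members named after genes in the list for the cell cycle, DNA replication and repair, 3 rose, 7 fell and 2 did not pass, with a median log2 fold change of -0.56. Of their 12 sense genes, 5 were higher and 4 lower, and over all genes tested the shares were 38.0% higher and 39.3% lower. The list takes in genes outside its name: KIF5C, a kinesin of neuronal transport, CCNT2, a cyclin of transcription elongation, MCM3AP, a factor of mRNA export, and PPP1R12A and PPP1R14B, regulators of myosin phosphatase, whose antisense RNAs and that of MCM3AP were the 3 rises. TMPO-AS1, at the gene of a protein bound to the nuclear lamina, had 0.415 and 0.177 CPM with abemaciclib, against 1.63 and 1.77 CPM untreated (-2.59 ± 0.40, and -3.22 without abemaciclib replicate 1). KIF9-AS1 fell as well (-1.06 ± 0.19), although KIF9 encodes a motor of cilia and not a mitotic kinesin. PPP1R14B-AS1 had 18.3 and 18.8 CPM with abemaciclib, against 5.63 and 5.74 CPM untreated (1.70 ± 0.10).

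Of 37 members named after genes of transcription factors and chromatin proteins, 8 rose, 17 fell and 12 did not pass, with a median of -0.30. Of the 36 sense genes tested, 6 were higher and 18 lower. The shares over all genes tested were 38.0% higher and 39.3% lower. GATA6-AS1, beside the gene of a factor of endoderm and heart, had 0.665 and 0.531 CPM with abemaciclib, against 3.18 and 4.06 CPM untreated (-2.62 ± 0.27), and GATA6 fell with it (-1.41 ± 0.11). ZNF436-AS1 had 1.70 and 1.95 CPM with abemaciclib, against 11.1 and 11.1 CPM untreated (-2.59 ± 0.15), while the zinc finger gene ZNF436 rose (0.33 ± 0.11), a call lost without abemaciclib replicate 2 (0.27) and in DESeq2. SP2-AS1 rose at low counts, with 1.54 and 1.33 CPM with abemaciclib and 0.556 and 0.244 CPM untreated (1.86 ± 0.39, and 2.52 without untreated replicate 1).

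Of 33 members named after genes of adhesion, matrix, cytoskeleton and cell surface signalling, 7 rose, 15 fell and 11 did not pass (median -0.26). For this list and those below, the shares over all genes tested were 38.0% higher and 39.3% lower. Besides MAP3K14-AS1, ITGA6-AS1, within the gene of a laminin-binding integrin subunit, had 0.208 and 0.059 CPM with abemaciclib, against 2.04 and 1.86 CPM untreated (-3.95 ± 0.46). STK4-AS1, at the gene of a Hippo pathway kinase, rose by 1.40 ± 0.40, a call lost in DESeq2 (adjusted p = 0.089). Of 44 members named after genes of metabolism and membrane transport, 15 rose, 20 fell and 9 did not pass (median -0.27), and of their 42 sense genes tested, 21 were higher and 14 lower. CACNA2D1-AS1, opposite the gene of an auxiliary calcium channel subunit, had 0.125 and 0.236 CPM with abemaciclib, against 2.93 and 4.34 CPM untreated (-4.24 ± 0.36). SLC9A3-AS1, opposite a sodium-proton exchanger gene, had 15.6 and 15.7 CPM with abemaciclib, against 57.7 and 59.3 CPM untreated (-1.90 ± 0.06). Of 37 members in the list for RNA processing, translation and protein turnover, 10 rose, 10 fell and 17 did not pass (median 0.09). This list takes in SNRK, a kinase gene, SBF2, a gene of membrane traffic, and VPS9D1 and ST7, which do not belong to it either, and the list for metabolism and transport takes in GNAS, LAMTOR5 and genes named TMEM, for transmembrane protein. The 182 members in none of these lists were split 68 higher, 60 lower and 54 not past, with a median of -0.03.

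Most antisense RNAs were less abundant than the gene opposite. Per exonic length (GENCODE release 29), 251 members stood below their sense gene over the 4 libraries, 121 of them more than 10-fold below, 85 stood above, and 9 had a sense gene with no count. The median level was 20.1% of the sense gene. The median exonic length was 2743 bases for members and 5792 bases for sense genes. Of the 85 above their sense gene, 26 rose, 37 fell and 22 did not pass. Of all members 32.2% were higher and 37.4% lower, and of all genes tested 38.0% and 39.3%. In 26 pairs the sense gene was too low to be tested, as in FGD5-AS1, which had 9391 counts in all against 5 of FGD5, in ADIRF-AS1 with 4564 counts against 2 of ADIRF, and in CD27-AS1 with 3625 counts against 3 of CD27. At the other end, TPT1-AS1 stood at 0.593% and 0.595% of TPT1 with abemaciclib and at 1.05% and 1.06% untreated; TPT1 encodes an abundant translationally controlled protein.

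**Figure D3:**
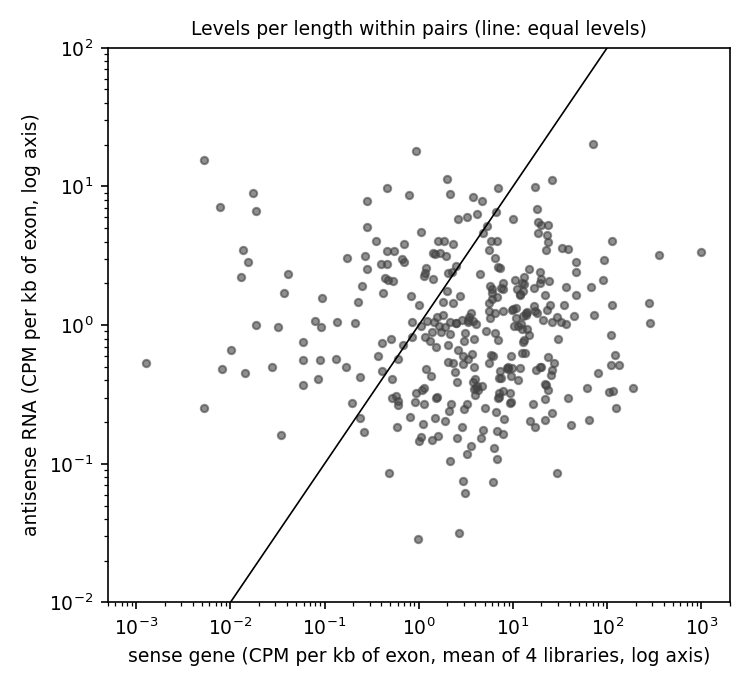
Level of each antisense RNA (y axis) against its sense gene (x axis), both as CPM per kb of exon averaged over the 4 libraries, on log axes, for the 336 pairs with a count of the sense gene. The line marks equal levels, with 251 pairs below it and 85 above it.

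Antisense RNAs changed in the direction of their sense gene about as often as against it. In 319 pairs both genes were tested. Both were called in 180 pairs, 93 in the same direction (35 both higher, 58 both lower) and 87 in opposite directions (44 with the antisense RNA higher and its sense gene lower, 43 with the antisense RNA lower and its sense gene higher). In 43 pairs the antisense RNA alone was called, in 73 the sense gene alone, and in 23 neither. DESeq2 gave 58 pairs in the same and 43 in opposite directions. Among members with no exon that overlaps an exon of the other strand (76), opposite directions were the more frequent, with 14 pairs in the same and 24 in opposite directions. Of the 314 sense genes tested, 35.0% were higher and 44.3% lower, against 34.0% higher among pairs whose antisense RNA rose and 48.3% lower among pairs whose antisense RNA fell. Pearson's r between the log2 fold changes was 0.16 and Spearman's rho 0.13 across the 319 pairs, which share their 4 libraries and in 5 cases the sense gene. The median absolute difference between antisense RNA and sense gene was 1.04 on the log2 scale. It was 1 or more in 166 pairs, 89 with the antisense RNA above and 77 below. In 71 of the 93 pairs with the same direction the antisense RNA changed more than its sense gene. Members had a median standard error of 0.27, against 0.096 over all genes, so a member needed a larger change to be called. The count of 71 therefore cannot show that antisense RNAs changed more in general.

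**Figure D4:**
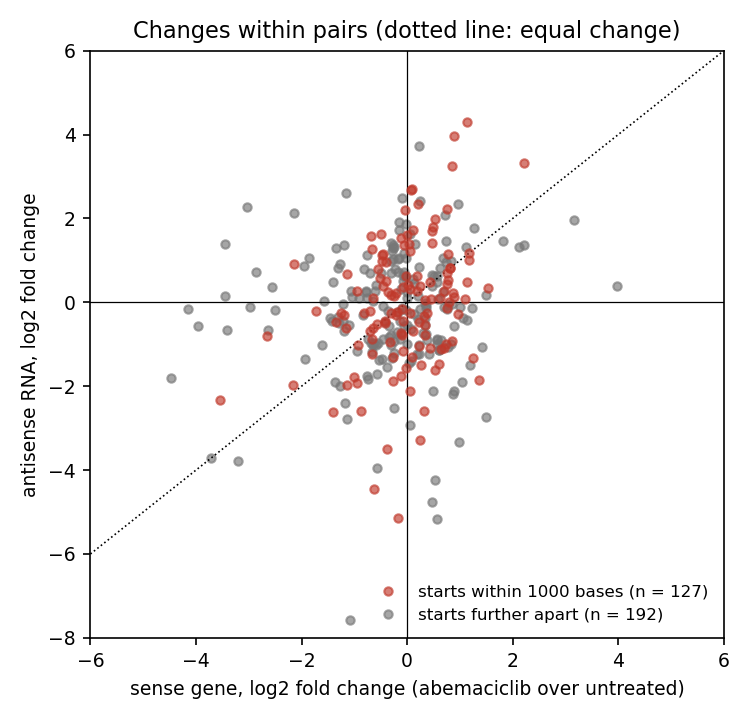
Log2 fold change, abemaciclib over untreated, of each antisense RNA (y axis) against that of its sense gene (x axis) in 319 pairs; red points have starts within 1000 bases of each other (127 pairs), grey points start further apart (192 pairs), and the dotted line marks equal change. Points spread over all 4 quadrants, with r = 0.31 for the red points and r = 0.08 for the grey ones.

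Pairs were then set apart by their position in the annotation. In 127 pairs the starts lay within 1000 bases of each other, and 39 of these were called in the same direction and 28 in opposite directions (r = 0.31, rho = 0.27). In the 192 pairs that start further apart, 54 had the same direction and 59 opposite directions (r = 0.08, rho = 0.04). Where exons overlap (233 pairs), 73 had the same direction and 62 opposite ones (r = 0.16). The 14 pairs with the largest share of antisense exonic bases on sense exons went the other way. Of these 14, 3 had the same direction and 8 opposite ones (r = -0.40, rho = -0.45). Where the gene bodies overlap but exons do not (48 pairs), the counts were 10 and 15 (r = 0.01), and where the genes do not overlap and their starts face apart (36 pairs), 8 and 10 (r = 0.25). The 33 pairs with both starts in 1 stretch of 300 bases, the kind printed above, had 10 in the same direction, 4 in opposite directions, 6 with the antisense RNA alone called, 9 with the sense gene alone and 4 with neither (r = 0.36, rho = 0.42). The difference between these classes was not tested, since pairs are not replicates of a condition.

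**Figure D5:**
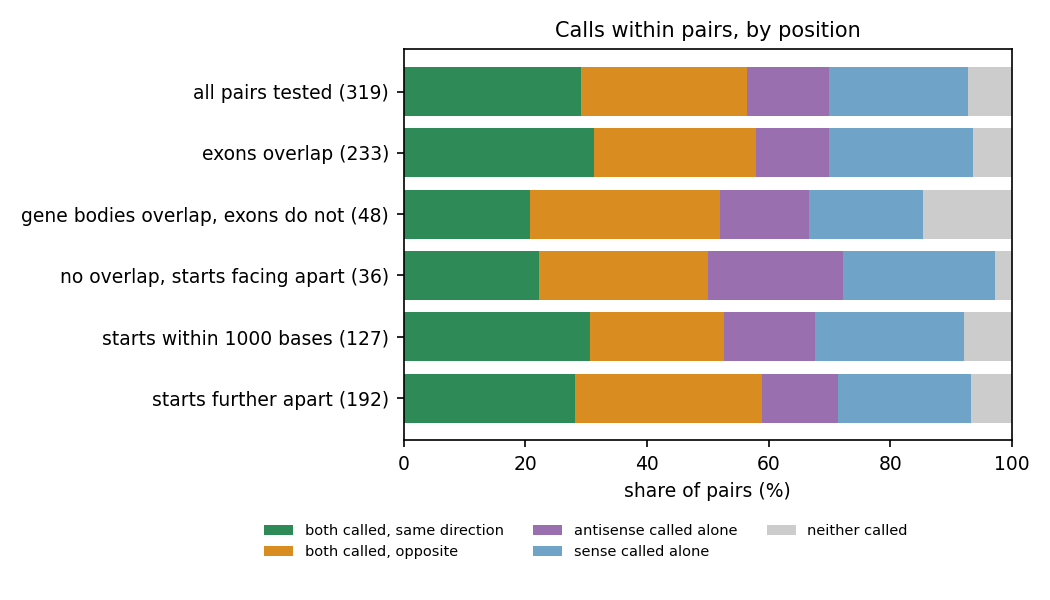
Share of pairs (x axis, %) by whether the antisense RNA and the sense gene were called and in which direction, for all 319 pairs and by position in the annotation (number of pairs in brackets; the classes by distance of the starts and those by overlap divide the same pairs). Same-direction calls outnumber opposite ones over all pairs (93 against 87) and in pairs with starts within 1000 bases (39 against 28). They also do where exons overlap (73 against 62), but not in the other classes shown.

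Among the shared starts printed above, ID2-AS1 had 0.374 and 0.325 CPM with abemaciclib, against 1.81 and 1.86 CPM untreated (log2 fold change -2.40 ± 0.36). ID2, a helix-loop-helix inhibitor of differentiation, had 8.02 and 7.26 CPM with abemaciclib, against 18.1 and 16.2 CPM untreated (-1.17 ± 0.10). Both RNAs were lower in each treated library than in either untreated one. ZBED5-AS1 had 17.0 and 16.9 CPM with abemaciclib, against 6.89 and 5.93 CPM untreated (1.41 ± 0.10), and ZBED5, a gene derived from a transposase, rose as well (0.47 ± 0.07). PRKAR2A-AS1 had 4.15 and 3.78 CPM with abemaciclib, against 8.59 and 8.25 CPM untreated (-1.09 ± 0.13). PRKAR2A, a regulatory subunit of protein kinase A, had 55.7 and 55.3 CPM with abemaciclib, against 34.9 and 33.9 CPM untreated (0.69 ± 0.05). There, the treated libraries were the lowest for the antisense RNA and the highest for the mRNA. RBM15, whose antisense RNA rose, had 5.48 and 5.55 CPM with abemaciclib, against 5.26 and 5.13 CPM untreated (0.09 ± 0.14).

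Pairs that moved together also included abundant members, named here after their values were seen. UBA6-AS1, next to the gene of a ubiquitin-activating enzyme, had 38.8 and 40.8 CPM with abemaciclib, against 11.5 and 11.5 CPM untreated (1.80 ± 0.07), and UBA6 rose by 0.49 ± 0.05. The antisense RNA stood at 124% and 131% of UBA6 per exonic length with abemaciclib and at 52.1% and 50.9% untreated. TPT1-AS1 had 13.6 and 13.6 CPM with abemaciclib, against 53.7 and 52.9 CPM untreated (-1.97 ± 0.06), and TPT1 fell by 1.14 ± 0.03 on the log2 scale. MSC-AS1 had 17.99 and 16.6 CPM with abemaciclib, against 38.8 and 38.6 CPM untreated (-1.17 ± 0.07), and MSC, a repressor of muscle genes, fell as well (-0.95 ± 0.05). In opposite directions, OIP5-AS1 fell while OIP5, a centromere factor, had 2.08 and 3.01 CPM with abemaciclib, against 1.56 and 1.34 CPM untreated (0.84 ± 0.25). The call of OIP5 was lost without abemaciclib replicate 2 (0.53) and in DESeq2.

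The largest differences between partners, antisense minus sense on the log2 scale, came from both sides. ATP6V1B1-AS1 had 2.45 and 2.04 CPM with abemaciclib, against 0.667 and 0.275 CPM untreated (2.28 ± 0.35, and 3.00 without untreated replicate 1). ATP6V1B1 had 1.12 and 1.00 CPM with abemaciclib, against 8.67 and 8.62 CPM untreated (-3.03 ± 0.18), a difference of 5.31 ± 0.39, which treats the standard errors of the partners as independent. The antisense RNA shares 898 exonic bases with a same-strand gene, and its counts were not whole. TSPOAP1-AS1 had 12.6 and 12.9 CPM with abemaciclib, against 7.78 and 7.61 CPM untreated (0.73 ± 0.10), while TSPOAP1 had 1.62 and 2.13 CPM with abemaciclib, against 13.0 and 14.8 CPM untreated (-2.87 ± 0.15). The difference was 3.60 ± 0.18.

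For ELN-AS1, AGAP2-AS1 and PAX8-AS1 the difference rested mostly on one partner. ELN-AS1, within the gene of elastin, had 1.91 and 1.98 CPM with abemaciclib, against 1.70 and 2.63 CPM untreated, and did not pass (-0.17 ± 0.25). ELN had 0.498 and 0.472 CPM with abemaciclib, against 8.04 and 9.23 CPM untreated (-4.15 ± 0.21). AGAP2-AS1 fell by 0.57 ± 0.07 on the log2 scale, with 22.8 and 20.9 CPM with abemaciclib and 30.4 and 34.1 CPM untreated, and AGAP2, a GTPase-activating protein that binds PI3-kinase, fell by 3.97 ± 0.22 (-4.70 without abemaciclib replicate 1 and -3.32 without abemaciclib replicate 2). SLFNL1-AS1 (2.13 ± 0.33) and USP3-AS1 (2.60 ± 0.33) rose while SLFNL1 (-2.14 ± 0.39) and USP3 (-1.15 ± 0.07) fell.

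On the other side, VAC14-AS1 had 0.582 and 0.709 CPM with abemaciclib, against 7.41 and 5.90 CPM untreated (-3.33 ± 0.23). VAC14, a scaffold of the endosomal lipid kinase PIKfyve, had 145 and 139 CPM with abemaciclib, against 70.3 and 72.3 CPM untreated (0.99 ± 0.04), and the difference was -4.32 ± 0.23. NAPA-AS1 had 0.623 and 0.472 CPM with abemaciclib, against 3.85 and 3.36 CPM untreated (-2.73 ± 0.28). NAPA, the SNARE adaptor alpha-SNAP, had 182 and 177 CPM with abemaciclib, against 62.9 and 64.7 CPM untreated (1.49 ± 0.04), a difference of -4.22 ± 0.28. In both pairs the treated libraries were lowest for the antisense RNA and highest for the mRNA. ROR1-AS1, CNIH3-AS1, DICER1-AS1 and CACNA2D1-AS1 differed from their sense genes by -5.73, -5.23, -4.96 and -4.77. Their sense genes had log2 fold changes of 0.57 ± 0.40, 0.48 ± 0.04, -0.18 ± 0.09 and 0.53 ± 0.13, of which those of CNIH3 and CACNA2D1 passed (CACNA2D1 not in DESeq2, adjusted p = 0.052).

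In 5 genes with 2 members each, the antisense RNAs of 1 gene could be compared with each other. CNIH3-AS1 fell by 4.75 ± 0.50 on the log2 scale and CNIH3-AS2, with 5.65 and 4.96 CPM with abemaciclib and 4.56 and 3.51 CPM untreated, rose by 0.40 ± 0.16. The call of CNIH3-AS2 was lost without untreated replicate 2 (0.21), without abemaciclib replicate 1 (0.32) and in DESeq2. PAXIP1-AS1 had 5.28 and 5.58 CPM with abemaciclib, against 11.1 and 13.0 CPM untreated (-1.15 ± 0.12), and PAXIP1-AS2 had 12.3 and 13.0 CPM with abemaciclib, against 9.63 and 8.28 CPM untreated (0.51 ± 0.10). PAXIP1 itself, which encodes a factor of the DNA damage response, did not pass (-0.08 ± 0.07). These pairs held opposite calls. DLGAP1-AS1 and DLGAP1-AS2 both fell (-0.57 ± 0.10 and -2.11 ± 0.07) while DLGAP1, a postsynaptic scaffold gene, rose (0.90 ± 0.20). BAALC-AS1 (1.37 ± 0.14) and BAALC-AS2 (3.32 ± 0.39) both rose, as did BAALC (2.22 ± 0.04). PTOV1-AS2 rose (1.38 ± 0.16) and PTOV1-AS1 did not pass (-0.29 ± 0.28), while PTOV1 fell (-1.20 ± 0.04).

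At the limit of 50 counts, ACVR2B-AS1 and ADNP-AS1 had 50 counts in all and SATB1-AS1 had 51, and just below it BNC2-AS1 and FOXN3-AS1 had 49 and CD81-AS1 and STPG2-AS1 had 48. ACVR2B-AS1 had 0.125 and 0.148 CPM with abemaciclib, against 0.889 and 0.550 CPM untreated. ADNP-AS1 had 0.623 and 0.561 CPM with abemaciclib, against 0.333 and 0.214 CPM untreated. SATB1-AS1 had 0.208 and 0.177 CPM with abemaciclib, against 0.556 and 0.764 CPM untreated. The fall of SATB1-AS1 was lost without untreated replicate 2 (-1.53), and that of ADNP-AS1, a rise, whichever of the 4 libraries was left out (0.81 to 1.44). Neither passed in DESeq2 (adjusted p = 0.10 and 0.30), and ADNP-AS1 also missed the threshold without the low-count filter (edgeR, adjusted p = 0.075) and with a replicate block (edgeR, adjusted p = 0.054).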

How the data were processed

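Poly-A RNA of 4 libraries was measured, grouped and numbered as in their titles. The authors deposited 1 table of expected counts per library, with Ensembl identifiers and gene names per the file headers; an expected count estimates the reads of a gene, may hold decimals and is scaled neither for depth nor for length. The submitters' processing notes list the tools RSEM 1.3.1 and STAR 2.7.2b and the build GRCh38. The annotation release and the strand setting of the counting are not given in the sources used here. Reads that match several genes are divided by such estimates, so members that share sequence with other genes are less certain than their replicate spread.

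Between 6.13% and 6.70% of values per library were not whole (tolerance 1e-06), and all were rounded. The test was that of edgeR 4.0.16 (R 4.3.3) (filterByExpr, TMM, robust quasi-likelihood F test, two-sided, Benjamini-Hochberg adjustment over 17207 genes, called under 0.05). A standard error is the log2 fold change divided by the square root of F. Where a group had 3 counts or fewer, an exact Clopper-Pearson interval stands beside the ratio of scaled counts. Pair positions, exonic lengths and gene types came from GENCODE release 29, which matched 58444 identifiers (96.4%) and is thus not exactly the annotation of the counting. RefSeq promoter windows (GRCh38.p14) were found for 239 members and 280 sense genes. In simulated counts of 16733 genes, 50 genes were changed at each of 4 sizes. The test found 40% of those changed by 1.25 times, 76% by 1.5, 88% by 2 and 100% by 4, and 5% of its calls were false. In the data 77.3% of genes were called, and the members' median standard error was 0.27, against 0.096 over all genes. The simulated shares therefore need not hold for the members. Replicates differed beyond counting noise (chi-square per degree of freedom 1.95 for abemaciclib and 3.56 untreated).

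Members and lists were chosen with earlier results of these data known, so counts over members are descriptions. Named were the 12 largest rises and falls among called members of at least 1 CPM with groups apart, the list of known antisense RNAs (those called or of at least 1 CPM), the 8 largest differences from the sense gene on each side, the 10 highest levels, the members beside the limit of 50 counts, and the 2 furthest up and down in each list of sense genes; others are said to be chosen after their values were seen. Not every gene that this rule selects is reported here. Alternatives were other scalings, DESeq2 1.42.0, no filter, unrounded counts, a replicate block, other count limits, leaving out each library and leaving out overlapping members.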

Additional observations from a re-analysis of the deposited data

How the results depend on the processing

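No member called in the comparison changed sign under any of the alternatives run. DESeq2 called 72 members higher and 94 lower, against 111 and 129, all 166 in the same direction as edgeR, in pairs 58 in the same and 43 in opposite directions against 93 and 87; over all genes it called 51.9% of 20685 tested. Limiting members to 200 or more counts (189 members) left 61 called higher and 86 lower, with 55 pairs in the same and 53 in opposite directions. Leaving out members whose exons overlap an exon of the other strand (76 left) gave 22 higher and 31 lower, a median of -0.26, and 14 pairs in the same against 24 in opposite directions, so which kind of pair was more frequent turned round; the cause was not tested. Fewer members enter both of these. Leaving out each library in turn gave 92 to 100 members higher, 108 to 125 lower, a median of -0.13 to -0.11, 76 to 82 pairs in the same and 60 to 78 in opposite directions, and over all genes 6035 to 6340 higher and 6275 to 6535 lower. The group left with 1 library was then assumed to vary like the other.

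Groups share replicate numbers, but the labels do not say that a number marks a shared culture, and deviations of same-numbered libraries had a correlation of 0.0353 over 10089 genes. With a replicate block, 104 members were higher and 123 lower, 226 of these 227 calls being shared with the test without it, and pairs were 89 in the same and 80 in opposite directions.

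Leaving out each library gave values of both signs for 3 members that did not pass: -0.54 to 0.20 for DDX11-AS1, -0.43 to 0.19 for ELN-AS1 and -0.26 to 0.0157 for LOXL1-AS1 (0.00174 without abemaciclib replicate 2). Leaving out mitochondrially encoded genes, an alternative chosen after seeing the data, gave 111 higher and 129 lower. The shallowest library had 23684260 counts, at which members near 50 counts in all rest on a few reads per library.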

Other observations

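Related name classes were tested in the same fit, without the limit of 50 counts set for members. That limit was reached by 53 genes named -DT, 7 named -IT, 7 named -AS with no number and 2 named -OT. Over all genes tested, 38.0% were higher and 39.3% lower. Of 58 genes named -DT, for divergent transcripts, 14 were higher and 27 lower, with a median log2 fold change of -0.19. Of 10 named -IT, for intronic transcripts, 1 was higher and 3 lower (median -0.79). Of 7 named -AS with no number, 2 were higher and 4 lower (median -0.85), and of 4 named -OT, for overlapping transcripts, 1 was higher and 3 lower (median -1.56). These counts are small and are given as values.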
